A study of Rattus norvegicus with 8 samples.

Results

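Transcripts of 7 voltage-gated sodium channel subunit genes, the alpha subunits Scn1a, Scn2a1, Scn3a and Scn8a and the beta subunits Scn2b, Scn3b and Scn4b, were followed in the medial thalamus of rats whose trachea had been repeatedly obstructed. They are 7 of 26980 genes with a tested probe. The genes were taken by their symbols on the array, with Scn2a counted as Scn2a1, and had 11 of its 41012 gene probes. A probe was tested if its Cy5 signal was well above background on at least 4 of the 8 arrays, and 10 of the 11 were, among 31690 tested probes in all. The study used 8 male Sprague-Dawley rats under urethane, a long-acting anaesthetic, each carrying an inflatable cuff around the trachea. In the 4 occlusion rats the cuff closed the airway for 2 to 4 breaths, was released for at least 15 breaths, and the cycle went on for 10 min, after which the brain was taken at once. In the 4 control rats the same cuff was in place and stayed deflated, and the brain was taken 70 min after surgery. Each array compared 1 animal, labelled in red (Cy5), with a pool of RNA from all 8 animals, labelled in green (Cy3), and values below are log2 ratios of animal over pool after background correction and loess normalisation unless another quantity is named. All groups therefore share anaesthesia, surgery and the pooled RNA. The labels do not give the time from surgery to brain removal in the occlusion rats, so the effect of that time and of the occlusions cannot be told apart.

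Voltage-gated sodium channels open when the membrane depolarises and carry the inward current of the action potential. A large alpha subunit forms the pore and senses voltage, while small beta subunits with 1 membrane span and an immunoglobulin-like outer domain alter gating, surface level and adhesion. Relay neurons of the thalamus pass sensory signals, including those from the airway and chest wall, to the cortex in tonic spikes or in bursts of sodium spikes riding on a calcium spike. In rodent brain Scn1a is used most by fast-spiking inhibitory neurons, Scn2a by excitatory neurons and unmyelinated axons, and Scn8a at axon initial segments and nodes of Ranvier. Scn3a is known mainly from the embryonic brain.

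Several of these genes lie side by side. By the coordinates in the scanner files, which refer to the rat build rn3, the Scn3a probe lay at chr3:47392644-47392703, the 3 Scn2a1 probes between chr3:47546358-47546981 and chr3:47618972-47619031, and the Scn1a probe at chr3:48135438-48135497. Scn8a was probed at chr7:139870345-139870404 and Scn3b at chr8:43262696-43262755. The Scn2b probe lay at chr8:48086524-48086583 and the Scn4b probes at chr8:48109084-48109143 and chr8:48115253-48115312. In the RefSeq annotation of the build GRCr8, used here for gene names and order, 0 annotated genes separated Scn2b from Scn4b and 0 separated Scn3a from Scn2a, whereas 4 protein-coding genes lay between Scn2a and Scn1a. The exon or UTR under each probe was not looked up, since no annotation of rn3 was used here.

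The promoters of the neighbours Scn2b and Scn4b are shown because these adjacent beta subunit genes start in stretches of contrasting base composition. Each line gives the 250 bases before the annotated start, 5′ to 3′ on the plus strand of GRCr8, from RefSeq, at chr8:54322133-54322382 for Scn2b and chr8:54343623-54343872 for Scn4b, with CpG dinucleotides in capitals.
Scn2b: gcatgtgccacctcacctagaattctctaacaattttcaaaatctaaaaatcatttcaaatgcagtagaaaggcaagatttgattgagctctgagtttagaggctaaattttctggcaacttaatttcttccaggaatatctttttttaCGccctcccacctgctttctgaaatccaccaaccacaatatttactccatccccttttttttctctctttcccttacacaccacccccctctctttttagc
Scn4b: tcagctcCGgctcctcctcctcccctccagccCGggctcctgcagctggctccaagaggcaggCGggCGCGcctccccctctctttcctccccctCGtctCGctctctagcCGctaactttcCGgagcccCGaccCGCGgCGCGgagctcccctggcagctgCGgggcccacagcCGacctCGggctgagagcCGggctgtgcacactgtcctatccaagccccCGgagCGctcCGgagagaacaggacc
The Scn2b stretch had 1 CpG and 38.8% G+C, and 7.83% of 33469 rat promoters of the same length had fewer CpGs. The Scn4b stretch had 21 CpGs and 71.6% G+C, and 84.9% of promoters had fewer CpGs, the median promoter having 5 CpGs and 51.2% G+C. Promoters were matched for 5 of the 7 genes, all but Scn1a and Scn3b. On both strands, the TATA box (TATAAA, in 12.9% of all promoters), the GC box (GGGCGG, 30.5%), the cAMP response element (TGACGTCA, 1.59%) and the first part of the REST site (TTCAGCACC, 0.305%) were searched. The Scn8a promoter held 6 GC boxes, none overlapping another motif, and the Scn2a, Scn3a, Scn2b and Scn4b windows held 0 matches. A match describes letters only and is not evidence of binding.

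Between 68.3% and 80.2% of the spots per array were well above background in Cy5. The tissue label was checked with marker genes. The thalamic relay list (11 measured genes) averaged -0.35 to 0.13 in the occlusion rats and -1.95 to 0.19 in the control rats, and control 3 alone held the -1.95, with 11 of 11 genes below all other animals. The same animal averaged 1.49 over 8 cortex markers, 7 of them above all other animals, against -0.83 to -0.31 in the occlusion rats and -0.95 to -0.78 in the other 3 control rats. The sample labelled control 3 thus went against its tissue label, and the differences below are given with and without it. In bulk tissue, fewer cells of a type and less RNA per cell cannot be told apart.

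The comparison of occluded with control animals addressed whether repeated obstruction changes gene expression in the medial thalamus. No sodium channel probe passed it. By limma with Benjamini-Hochberg adjustment over all tested probes, 0 of 10 member probes had an adjusted p under 0.05, against 0% of all probes, and 0 of 10 had an unadjusted p under 0.05, against 3.06% (969 of 31690, with 574 or 1.81% higher and 395 or 1.25% lower). The occlusion and control values overlapped on all 10 probes, while 2.5% of all tested probes had groups that did not overlap, 1.23% with occlusion higher and 1.27% with occlusion lower. With 1 probe per gene, 3 differences lay above 0 and 4 below, in a background of 50.7% above and 49.3% below. Without control 3 the main probes stood at 5 above 0 and 2 below (50.1% of all probes were above), with 0 adjusted p under 0.05 against 0.00316% of all probes, 0 unadjusted against 4.12%, and 0 without overlap against 6.13%. Scn2a1 and Scn3b were the genes whose main probe changed sign. With 4 rats a side the smallest exact permutation p possible was 0.0286.

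**Figure D1:**
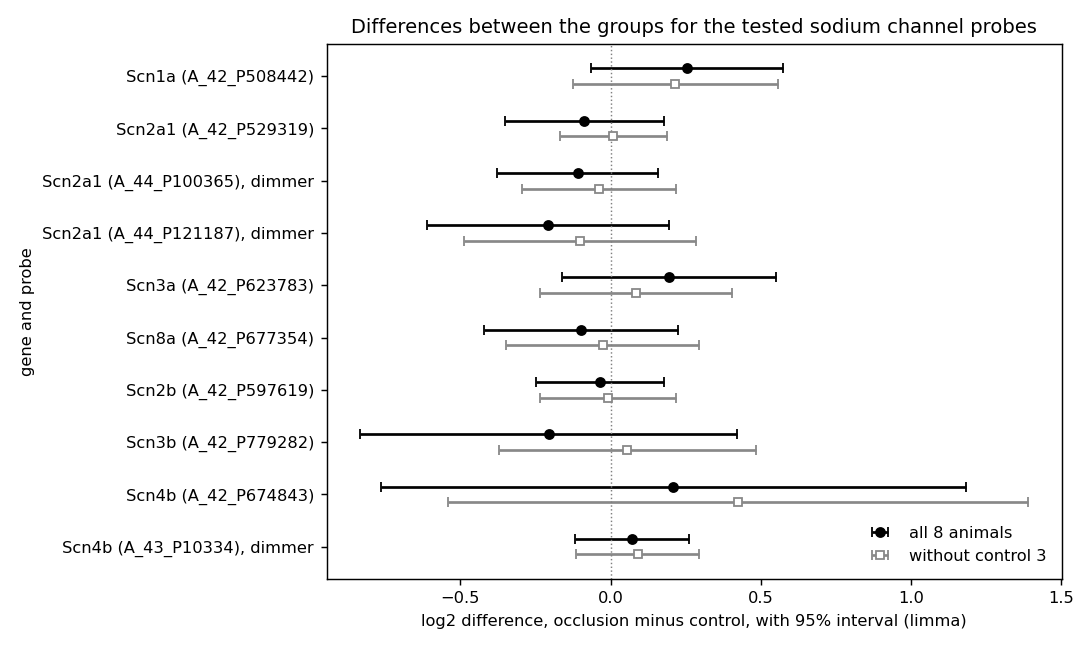
Differences in log2 ratio, occlusion minus control, with 95% intervals, for the tested probes of the 7 genes (horizontal axis, log2), with all 8 animals and without control 3. Every interval spans 0, and the Scn4b interval, from -0.76 to 1.18 with all animals, is the widest.

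Among the alpha subunits, Scn1a had the largest difference. Its log2 ratios were 0.37, -0.15, -0.10 and 0.04 in occlusion 1 to 4, against -0.45, 0.01, -0.33 and -0.09 in controls 1 to 4. Occlusion 1 was the highest of the 8 animals and control 1 the lowest, and the other 6 lay between with the groups interleaved. The means were 0.04 ± 0.23 in occlusion rats and -0.21 ± 0.22 in control rats (SD, n = 4 each), a difference of 0.25 (SE 0.14, 95% interval -0.06 to 0.57). This corresponds to 1.19-fold with an interval of 0.956-fold to 1.49-fold, and it was 0.22 without control 3. The adjusted p in limma was 0.977, the exact two-sided permutation p was 0.2, and 8.00% of tested probes had a smaller limma p.

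Scn2a1, the second alpha subunit and the one that starts spikes in developing and unmyelinated axons, was measured by 3 probes. On the main probe occlusion 1, 2 and 4 had -0.07, -0.11 and 0.06, against -0.05, -0.03, 0.34 and -0.07 in controls 1 to 4. The spot of occlusion 3 was an outlier by the scanner software and was left out. The other 6 animals fell within 0.17 of each other on the log2 scale, and control 3 stood above them all. The difference was -0.09 (SE 0.11, interval -0.35 to 0.18; n = 3 occlusion and 4 control rats; exact permutation p = 0.686), and 0.0086 without control 3.

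Scn3a, the alpha subunit with an embryonic bias, had 0.01, 0.22, 0.16 and -0.14 in occlusion 1 to 4, against 0.26, -0.02, -0.46 and -0.31 in controls 1 to 4. The highest and the lowest animal were both controls, control 1 and control 3. The difference was 0.19 (SE 0.16, interval -0.16 to 0.55; exact permutation p = 0.343), and 0.085 without control 3.

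Scn8a, the alpha subunit of mature nodes and initial segments, had 0.08, -0.28, -0.01 and 0.27 in occlusion 1 to 4, against -0.15, 0.26, 0.33 and 0.01 in controls 1 to 4. Occlusion 2 was the lowest animal and control 3 the highest. The difference was -0.10 (SE 0.14, interval -0.42 to 0.22; exact permutation p = 0.543), and -0.03 without control 3. The pool's own Cy3 signal for this probe was 1102 on the array of control 3, against 318 to 588 on the other 7 arrays, although the same pool was on every array. Its part in the Scn8a ratio of control 3 was not tested. After background correction the mean log2 intensity of both channels was 9.71 for occlusion 3 and 8.92 for occlusion 4. Their scanner Cy5 signals were 521 and 609. What the higher intensity did to the ratio of occlusion 3 was not tested. With the scanner's own log ratio, control 1 had 0.08 and the difference between the groups was -0.18 (SE 0.14). The second Scn8a probe was well above background on 0 of 8 arrays and was not tested.

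**Figure D2:**
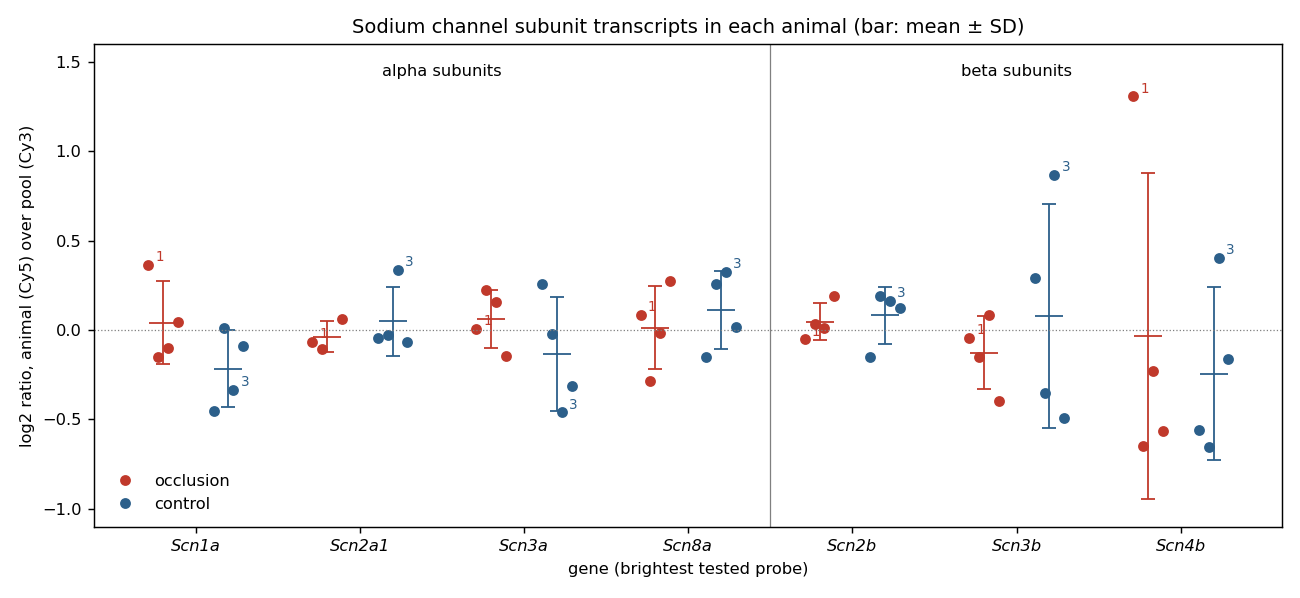
Log2 ratio of animal over pool (vertical axis) for the main probe of each gene, with occlusion animals left of control animals, 1 point per animal and bars for mean ± SD, and numbers mark occlusion 1 and control 3. Scn4b is high in occlusion 1 at 1.31, and Scn3b in control 3 at 0.87, while Scn2b, a weak probe, spans 0.34 here and 0.88 with the scanner's own log ratio.

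The spread between animals was uneven among the beta subunits. The SD within groups was 0.73 for Scn4b, 0.47 for Scn3b and 0.13 for Scn2b. On the main probes of the alpha subunits it was 0.16 to 0.25. The low value of Scn2b comes from a weak probe. With the scanner's own log ratio its range over the animals was 0.88, against 0.44 to 0.83 for the alpha subunits. Scn4b, whose intracellular tail is known for enabling resurgent current in fast-firing neurons, had 1.31, -0.65, -0.23 and -0.57 in occlusion 1 to 4, against -0.56, -0.65, 0.41 and -0.16 in controls 1 to 4. Occlusion 1 was the highest animal, followed by control 3, and the remaining occlusion rats lay within the control range. In the scanner's Cy5 signal occlusion 1 had 9807, against 1734 to 2876 in the other occlusion rats and 1520 to 5482 in control rats. The pool's Cy3 signal for this probe was 3824 on the array of occlusion 1, against 2212 to 4123 on the other 7 arrays.

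The Scn4b difference was 0.21 (SE 0.43, interval -0.76 to 1.18, or 0.589-fold to 2.27-fold), with an adjusted p of 0.982 in limma and an exact permutation p of 0.8. It was 0.42 without control 3 and -0.24 without occlusion 1, so its sign rested on occlusion 1. The range over 8 animals was 1.96, or 3.89-fold, and 98.7% of tested probes had a smaller SD within groups (0.73 for Scn4b, against a median of 0.14 over all probes).

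Scn3b, a beta subunit bound to the alpha subunit without a disulfide bridge, had -0.04, -0.15, 0.08 and -0.40 in occlusion 1 to 4, against 0.29, -0.35, 0.87 and -0.49 in controls 1 to 4. Control 3 was the highest and control 4 the lowest, and all occlusion rats lay between them. The difference was -0.21 (SE 0.28, interval -0.83 to 0.42; exact permutation p = 0.6), and 0.056 without control 3. Its Cy5 signal was 67572 in control 3, against 23469.6 to 35117 in occlusion rats and 20736 to 25080.2 in the other control rats. The pool's Cy3 signal for this probe was also highest on the array of control 3, at 39093 against 20487 to 33334 on the other 7 arrays. The Cy5 signals alone therefore also carry differences between arrays.

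Scn2b, which is joined to the alpha subunit by a disulfide bridge, had -0.05, 0.04, 0.01 and 0.19 in occlusion 1 to 4, against -0.15, 0.19, 0.16 and 0.12 in controls 1 to 4. The groups overlapped throughout, and control 1 was the lowest animal. The difference was -0.04 (SE 0.09, interval -0.25 to 0.18, or 0.842-fold to 1.13-fold; exact permutation p = 0.743), and -0.0081 without control 3. The probe was well above background on 7 arrays in Cy5, all but that of control 1, and on 6 in the pool, with Cy5 signals of 39.5 to 57.1 in occlusion rats and 15.1 to 70.9 in control rats. After background correction the mean log2 intensity of both channels for this probe was 9.28 on the array of occlusion 3, against 6.60 to 7.56 on the other 7 arrays. Its part in the ratio of occlusion 3 was not tested, and the difference between the groups was 0.044 (SE 0.24) with the scanner's own log ratio. The range over the 8 animals was 0.34 here and 0.88 with the scanner's log ratio, against 1.96 and 2.03 for Scn4b.

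The slide could be used to split each comparison, since slide 1 held occlusion 1 and 2 with control 3 and 4, and slide 2 held the rest. The difference on slide 1 and on slide 2 was 0.32 and 0.19 for Scn1a, -0.22 and 0.10 for Scn2a1, 0.50 and -0.11 for Scn3a, and -0.27 and 0.08 for Scn8a. For the beta subunits it was -0.15 and 0.08 for Scn2b, -0.28 and -0.13 for Scn3b, and 0.21 and 0.21 for Scn4b. Scn1a, Scn3b and Scn4b kept their sign on both slides, and the other 4 genes had opposite signs. Each slide had only 2 rats a side. The SE on slide 1 and slide 2 was 0.21 and 0.17 for Scn1a and 0.47 and 0.26 for Scn3b. For Scn4b it was 0.69 and 0.14, for Scn3a 0.13 and 0.15, for Scn8a 0.19 and 0.18, and for Scn2b 0.10 and 0.15. Scn3a on slide 1 had an unadjusted p of 0.0152 and an adjusted p of 0.866 in limma. Slide 1 includes control 3 for every gene, and a shared sign is not a replication.

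Probes of the same gene gave a second reading of each animal for Scn2a1, where the second probe of the same RefSeq transcript had 0.32, 0.14, -0.07 and 0.37 in occlusion 1 to 4, against 0.22, 0.33, 0.51 and 0.14 in controls 1 to 4. The remaining probe, made from a separate database entry and listed over 624 bases of rn3, had -0.08, -0.12, -0.50 and -0.78, against -0.34, -0.09, 0.15 and -0.38. Control 3 was highest on all 3 probes, whereas occlusion 4 was next to it on the second probe and the lowest on the remaining one. The main and second probes correlated at r = 0.86 (n = 7 animals), and the remaining one with them at 0.31 (n = 7) and 0.41 (n = 8). All share their animals, labelling and pool, so the correlations are descriptions. The differences of these other probes were -0.11 (SE 0.12) and -0.21 (SE 0.18), both below 0 as on the main probe, and -0.04 and -0.10 without control 3.

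The second Scn4b probe passed the signal filter on exactly 4 arrays, those of occlusion 1 and controls 2, 3 and 4. Its values were 0.03, -0.29, -0.02 and -0.16 in occlusion 1 to 4, against -0.22, -0.23, -0.12 and -0.14 in controls 1 to 4. The same lift on the array of occlusion 3 was seen here, with a mean log2 intensity of 9.26 against 6.14 to 7.24 on the others. The pool was well above background for this probe on 0 of 8 arrays, so the ratios give no second reading of Scn4b. The difference was 0.07 (SE 0.08), or 0.091 without control 3. The untested Scn8a probe was above background in neither channel on any array and gives no second reading either.

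**Figure D3:**
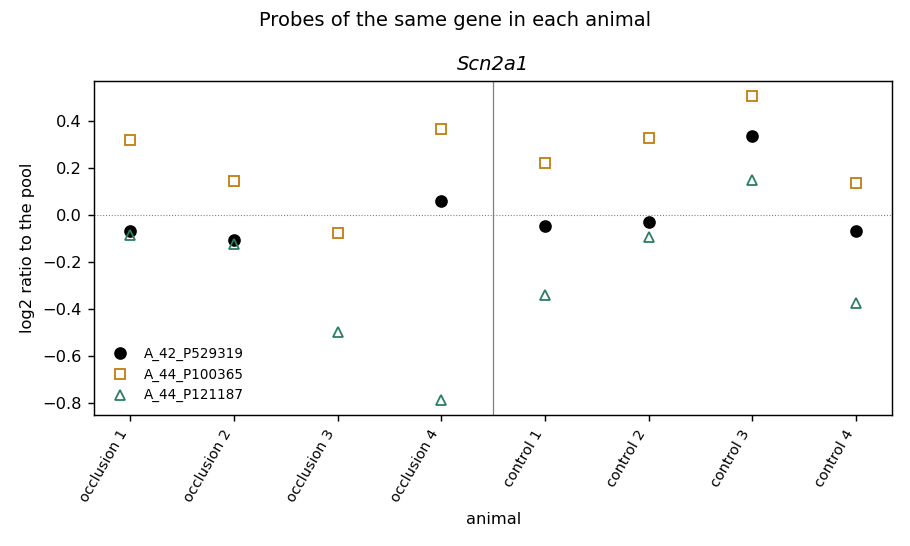
Log2 ratio of animal over pool by animal for the 3 probes of Scn2a1, 1 symbol per probe, occlusion animals left of control animals. All 3 have their highest value in control 3.

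Deviations of single animals were set beside those of the whole array. Control 3 lay outside the range of the other 7 animals on 48.8% of 30756 probes measured in all animals, and on 5 of 9 member probes, above on 4 (24.3% of all probes) and below on 1, Scn3a (24.4%). A share of 5 in 9 is near that background. Occlusion 1 lay above the others on 3 of 9, those of Scn1a and Scn4b, and on 14.6% of all probes. One of the 3 is the second Scn4b probe, whose pool signal was at background. Markers moved with these animals too. Inhibitory neuron markers (5 of 5 measured) averaged 0.79, -1.02, -0.91 and 0.54 in occlusion 1 to 4, against -1.44, -0.76, 1.27 and -0.63 in controls 1 to 4. Like Scn4b, the list had its 2 highest means in control 3 and occlusion 1, but their order was reversed and occlusion 4 was near occlusion 1. Markers of neurons in general (6 of 6 measured) averaged 0.24, -0.10, -0.21 and -0.23 in occlusion 1 to 4, against -0.25, -0.16, 0.0053 and -0.24 in controls 1 to 4. Their 2 highest means were in occlusion 1 and control 3, in the same order as for Scn4b. In control 3 the list was split, with 2 of the 6 genes above every other animal and 3 below. In occlusion 1, 2 genes were above every other animal and 0 below. Oligodendrocyte markers averaged 0.20 in occlusion 1, with 6 of 6 above every other animal, and -0.52 to -0.14 in the other 7. Control 3, second highest for Scn4b, had the lowest oligodendrocyte mean at -0.52. The part of these markers in the Scn4b and Scn3b values was not tested.

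**Figure D4:**
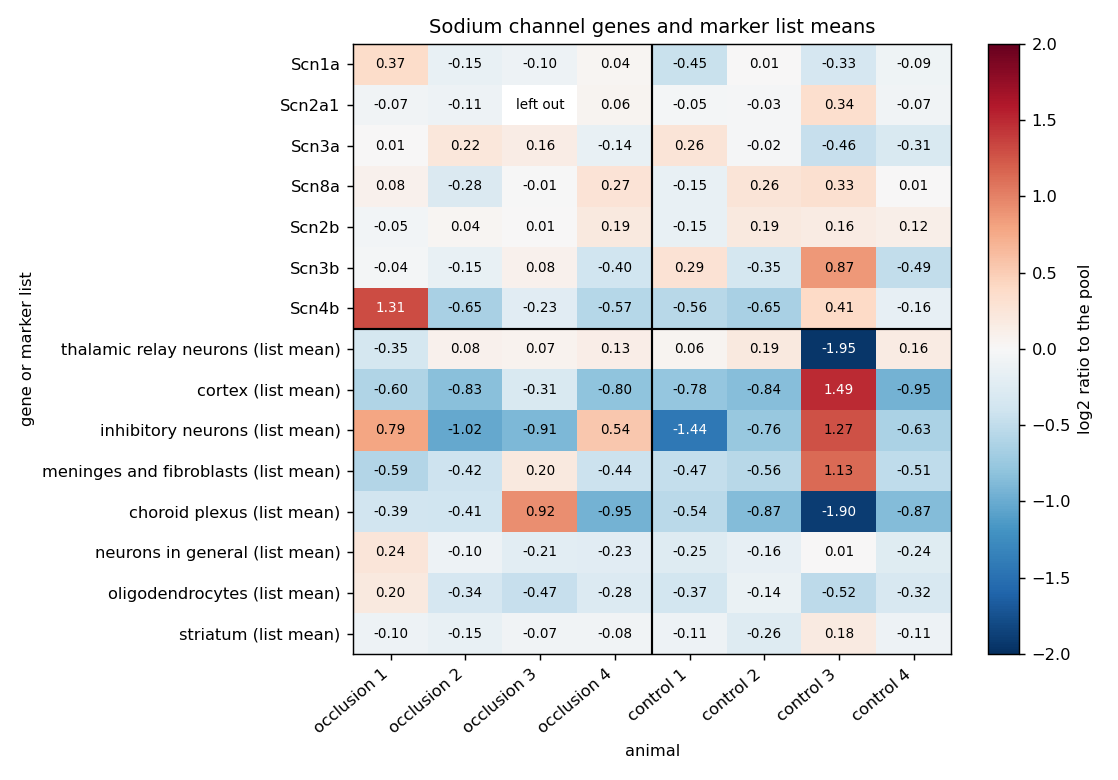
Log2 ratio of animal over pool for the main sodium channel probes, beside means of marker lists, by animal, occlusion animals left of control animals. Control 3 has the lowest thalamic relay mean at -1.95 and the highest cortex mean at 1.49.

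Other parts of the sodium current machinery were read from lists chosen with earlier results of these data known. No gene of the 4 lists passed adjustment over all probes in limma (smallest adjusted p = 0.977). An unadjusted p under 0.05 was found for 1 of 7 other subunits, 1 of 10 regulators, 1 of 14 initial segment and node genes and 0 of 6 pump genes, beside 3.06% of all probes. Of the other sodium channel subunits 7 of 8 could be tested, all but Scn4a, with 4 above 0 and 3 below and a median of 0.07 (-0.07 without control 3), beside a median of 0.00 over all probes. Scn9a and Scn10a, alpha subunits known from sensory neurons, differed by -0.16 (SE 0.12) and -0.07 (SE 0.07), and by -0.070 and -0.098 without control 3. Both probes were dim, with mean log2 intensities of 8.29 and 7.14, beside 7.31 for the weak Scn2b probe.

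Of the channel regulators 10 of 12 were tested, with 1 above 0 and 9 below and a median of -0.11 (-0.08 without control 3). Of all tested probes 49.3% lay below 0. The list was chosen with earlier results known, and its direction was not tested. Fgf13, an intracellular FGF homologue that binds the channel's tail, had -0.37, -0.06, -0.06 and -0.11 in occlusion 1 to 4, against -0.01, 0.18, 0.02 and 0.05 in controls 1 to 4. Its groups did not overlap, as on 2.5% of all probes, and the difference was -0.21 (SE 0.09, unadjusted p = 0.0429, adjusted p = 0.977 in limma), or -0.22 without control 3. Its relative Fgf14 differed by -0.20, or -0.15 without control 3, and Nedd4l, a ubiquitin ligase that removes sodium channels from the membrane, by -0.32, or -0.15 without control 3. These values did not pass the adjusted test.

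At the axon initial segment and node of Ranvier 14 of 15 genes were tested, 6 above 0 and 8 below, with a median of -0.03 (-0.05 without control 3). Nrcam, a cell adhesion molecule of the node, differed by -0.21 (SE 0.08, unadjusted p = 0.0240, adjusted p = 0.977 in limma), or -0.16 without control 3. The extracellular matrix protein Tnr differed by -0.09, and by -0.039 without control 3. The sodium pump, which restores the gradient the channels use, was tested in 6 of 6 genes, 4 above 0 and 2 below, with a median of 0.12 (0.10 without control 3). The pump's beta subunits Atp1b1 and Atp1b2 differed by 0.26 and 0.28, and by 0.20 and 0.15 without control 3.

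**Figure D5:**
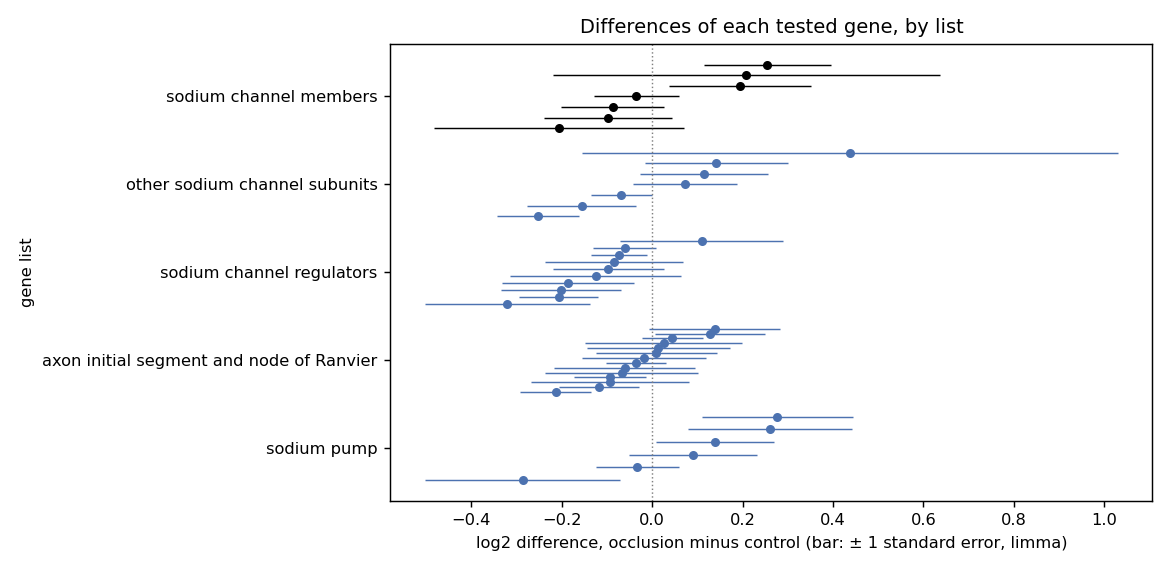
Differences in log2 ratio, occlusion minus control, for each tested gene of the 4 lists around the sodium channel (horizontal axis, log2), with bars of 1 standard error, below the 7 main sodium channel probes in black. Of the regulators 9 of 10 lie below 0, beside 49.3% of all tested probes, and 0 genes pass the adjusted test.

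The genes whose values followed each member most closely over the animals were read off as a description among 13065 measured genes (13115 for Scn2a1), where high correlations arise by selection. Scn1a was closest to Grin3b (r = 0.97, rho = 0.83, n = 8) and Cdadc1 (r = 0.96). Scn2a1 was closest to Gpm6b (r = 0.996, rho = 0.89, n = 7) and Igfbp2 (r = 0.99). Scn3a was closest to C3h11orf91 (r = 0.98, rho = 0.95, n = 8) and Cdkn2aipnl (r = 0.97). Scn8a was paired with Ptgs1 (r = 0.97, rho = 0.93, n = 8) and Pbld1 (r = 0.96), and Scn2b with Nudt8 (r = 0.97, rho = 0.98, n = 8) and Kcnc1 (r = 0.96). Scn3b was paired with Fbxo45 (r = 0.99, rho = 0.93, n = 8) and Atxn3 (r = 0.98). Scn4b was paired with Pdlim7 (r = 0.98, rho = 0.79, n = 8) and Bicd2 (r = 0.96). Without the 2 animals farthest from the median, r fell to 0.74 for Scn4b with Pdlim7, and was 0.86 for Scn1a with Grin3b, so Scn4b's likeness to Pdlim7 rested in part on occlusion 1 and control 3. The closest genes of the other members had r of 0.88 to 0.99 after the same step.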

How the data were processed

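Total RNA of medial thalamus from 4 occlusion and 4 control rats was hybridised to 2-colour Agilent arrays. Red dye marked the animal and green the pooled RNA per the labels, without dye swaps, so dye bias remains in every ratio. The deposited scanner files hold spot intensity made with Agilent Feature Extraction 9.5.1.1 per the file headers, and log10 ratios of red over green that the authors' software made. The value table the authors deposited holds their log ratios, and these matched the scanner's log10 ratios for all 45018 spots within 1%. Its column medians were 0, and its values were used only as an alternative.

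Mean intensity was background-corrected by normexp (offset 50), loess-normalised within arrays and averaged per probe with limma 3.58.1 in R 4.3.3; outlier spots and control spots were left out. Probes well above background on at least 4 of 8 arrays, with at least 2 values per group, were fitted with lmFit and eBayes over all 8 animals, with Benjamini-Hochberg adjustment over all tested probes and a threshold of 0.05. The fit was tested on simulated data. Where a gene had several probes, the one with the highest mean intensity was its main probe. Single probes were also compared by exact two-sided permutation of the 70 assignments, or 35 for the Scn2a1 main probe. Names came from the RefSeq table of GRCr8 (19829 of 41012 probes found no match and kept the array design's name). The genes named in each list were among the 3 with the smallest p, some of which are not reported here, and the genes most like a member the 2 with the highest r. The members and lists were chosen with earlier results of these data known. Precision is limited by the number of arrays.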

Additional observations from a re-analysis of the deposited data

Results flagged for a closer look

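In 47 checks of the member probes and marker lists, 6 values in a group of 4 stood far from the other 3 by Dixon's criterion. Chance gives about 1 in 20 for a single check. The checks share the same animals, and all 6 flags fell on control 3 or occlusion 1, so they are not separate events. One was a sodium channel probe, the Scn2a1 main probe in control 3, at 0.34 log2 against -0.07 to -0.03 in the other control rats. The other 5 were marker means. Control 3 stood apart in cortex markers (1.49), in meninges and fibroblast markers (1.13) and in thalamic relay markers (-1.95). Occlusion 1 stood apart in red blood cell markers (-0.86) and thalamic relay markers (-0.35). Scn4b in occlusion 1, at 1.31, did not meet the criterion.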

How the results depend on the processing

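No sodium channel probe passed the adjusted threshold in any of the 25 alternatives. Over all probes, 1 passed without control 3, Bcl3 (log2 difference 1.104, adjusted p = 0.0375 in limma), and 0 in the other 24. The Scn1a difference stayed above 0 in all 25, but some of these could not move it. Scn1a had 1 probe, measured in all animals. The changed filters on dim probes, the brightest or mean probe per gene, and the slide and replicate blocks therefore returned the same 0.25. Scn2a1 turned positive with median centring (0.048), on slide 2 (0.096) and without control 3 with slide as a block (0.038). The replicate block gave 0.0086, the same value as leaving out control 3. Occlusion 3 had no value on this probe, so control 3 had no partner in that block. Scn3a was -0.11 and Scn8a 0.075 on slide 2. Scn2b was 0.0441 with the scanner's log ratio, 0.0436 with the deposited table and 0.082 on slide 2. Scn3b was 0.13 with array weights and 0.081 without control 3 with slide as a block. The causes of the other sign changes were not tested. Leaving out 1 animal at a time gave 0.15 to 0.33 for Scn1a, -0.14 to 0.0086 for Scn2a1, 0.085 to 0.32 for Scn3a, -0.18 to 0.0020 for Scn8a, -0.11 to 0.00077 for Scn2b, -0.40 to 0.056 for Scn3b and -0.24 to 0.42 for Scn4b, with 0 to 1 probe of all and 0 to 0 member probes past the threshold.

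Unadjusted p under 0.05 was found for 969 probes (59.2% higher), against 325 with median centring (78.5% higher), 301 without normalisation (24.6% higher, median of all probes -0.17), 1595 with array weights, 565 without occlusion 1 and 1688 without control 1. Of such probes 37.2% were higher with the scanner's log ratio, and 37.1% with the authors' deposited values. In deviations from their group means, same-numbered animals correlated at -0.13, 0.13, 0.02 and 0.08, and 1 of 8 correlated best with its own number. These values gave no sign of pairing by number, but cannot exclude it. The replicate block lowered the count to 932. Scn2b had no value under a filter of all 8 arrays. Signal over background (medians of 3.65 to 4.67 per array) limits Scn2b and the second Scn4b probe most.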

Other observations

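Markers of tissue that borders the medial thalamus also differed between single animals. The mean over 6 choroid plexus genes was -0.39, -0.41, 0.92 and -0.95 in occlusion 1 to 4, against -0.54, -0.87, -1.90 and -0.87 in controls 1 to 4. Occlusion 3 was highest, with 5 of 6 genes above every other animal, and control 3 lowest, with 5 of 6 below. Habenula markers, from a nucleus beside the medial thalamus, averaged 0.16, 0.68, 0.24 and -1.06 in occlusion 1 to 4, against 0.36, -0.17, -1.51 and -0.06 in controls 1 to 4. Control 3 and occlusion 4 were both low. The means of the microglia and endothelial marker lists stayed between -0.14 and 0.26 in every animal. Single genes of these lists varied more, such as Aif1 with -0.58 in occlusion 2 and 0.72 in occlusion 4.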
